A study of Mus musculus with 9 samples.

Results

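Gas5, Snhg1, Snhg3, Snhg5, Snhg6, Snhg8, Snhg12 and Zfas1 are noncoding host genes of small nucleolar RNAs (snoRNAs). They were chosen by name, as the rows of the deposited gene tables whose identifiers match these 8 symbols. The tables hold 55487 genes, and all 8 passed the filter on low counts that left 13043 genes for testing. The cells were naive CD4+ T cells, helper T cells that have not yet met antigen, isolated from the lymph nodes of C57BL6/J mice, wild type. IL-1b-treated cells were cultured for 20 h with recombinant interleukin-1 beta at 10 ng/mL, cultured cells were kept for the same 20 h without the cytokine, and fresh cells were taken to RNA without culture. Each group has 3 libraries of polyadenylated RNA, 9 in all. Whether the 3 are separate cultures or animals is not in the labels, and p-values may therefore reflect technical spread alone.

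A noncoding snoRNA host gene is transcribed and spliced like a messenger. The snoRNAs lie in its introns and are trimmed from them after splicing. They guide chemical modification of ribosomal and spliceosomal RNA, box C/D snoRNAs for methylation and box H/ACA snoRNAs for pseudouridylation. The spliced exons carry no long reading frame, and for several hosts, Gas5 among them, translation of a short frame sends the spliced RNA to nonsense-mediated decay. Many hosts begin with a terminal oligopyrimidine (TOP) tract, the run of C and T with which ribosomal protein messengers also begin and through which mTOR signalling controls translation. Gas5 takes its name, growth arrest specific, from its accumulation in mouse fibroblasts that stop growing.

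Library totals were between 13518814 and 23056686 expected counts. On the third principal component of log2 CPM (counts scaled to the library total), with 6.37% of the variance, IL-1b-treated replicate 3 lay at -39.63, against 13.99 and 19.84 for the other IL-1b-treated libraries. Without it, the call of Snhg1 in IL-1b-treated against fresh cells, reported below, was lost (adjusted p = 0.0526 with edgeR). The length calls of Zfas1 against fresh cells were lost in IL-1b-treated (adjusted p = 0.0664 with limma) and in cultured cells (0.0713). Calls of Epb41l4aos (0.0742), Neat1 (0.0924), Syncrip (0.0761), Znhit3 (0.131) and Znhit6 (0.104) were lost with edgeR in IL-1b-treated against cultured cells. Weighted by counts, effective length had a median of 1781 to 1794 bases in IL-1b-treated, 2100 to 2136 in cultured and 2359 to 2380 in fresh libraries. Short transcripts therefore weighed more in the cultured libraries, and more still in those with IL-1b. The 9 markers of naive CD4+ T cells were present in every library, with a summed level of 3598 to 3647 TPM (counts scaled for transcript length and library total) in IL-1b-treated, 4058 to 4096 in cultured and 4856 to 4945 in fresh libraries. Markers of other cell types moved with culture. The 5 B cell markers summed to 3.32 to 4.98 TPM in IL-1b-treated, 3.81 to 4.42 in cultured and 45.63 to 54.60 in fresh libraries. For the 5 myeloid markers the sums were 1.52 to 3.45, 1.52 to 2.51 and 16.97 to 20.08 TPM, for the 3 neutrophil markers 0 to 1.38, 0 to 0.28 and 9.70 to 28.95, for the 2 NK cell markers 0 to 0.03, 0 to 0.24 and 0.43 to 0.93, and for the 2 CD8 markers 37.91 to 42.44, 41.19 to 50.14 and 23.82 to 25.56, in the same order of groups. Retnlg and Ncr1 were at 0 in IL-1b-treated cells and S100a8 and Retnlg in cultured cells, while all listed markers had counts in fresh cells, and their part in the results below was not tested. Il1r1, which encodes the receptor of the cytokine, had 0 counts in each of the 9 libraries, where 3 counts equal 0.130 to 0.222 CPM, and its partner Il1rap had 220.8 to 466.7 counts.

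The hosts lie on 6 chromosomes of mm10 (GRCm38). Gas5 spans chr1:161034422-161038539 on the plus strand and holds 10 annotated snoRNAs. Snhg1 (chr19:8723475-8726443, plus) holds 8, and Snhg12 (chr4:132308623-132311024, plus) holds 5. Zfas1, named as the antisense neighbour of Znfx1 (chr2:167062934-167065862, plus), holds 3. Snhg3 (chr4:132348014-132353686, minus) and Snhg5 (chr9:88521050-88522929, minus) hold 2 each, and Snhg6 (chr1:9941959-9944118, minus) and Snhg8 (chr3:123507552-123508404, minus) 1 each. Of these 32 annotated snoRNAs 29 lie within an exon of at least 1 annotated isoform of the host, and 3 are only intronic. Snord80 in Gas5 and Snora16a in Snhg12 are each annotated more than once at overlapping positions, so these are counts of annotated entries. The snoRNAs themselves could not be followed. They are 60 to 205 bases long, 30 of them have an effective length of 0 and no counts in any of the 9 libraries, and only Snora73a and Snora73b inside Snhg3 had counts, of at most 9 and 20.33 in a library. All values below are thus those of the host genes. How much of the RNA counted was spliced was not tested.

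A box C/D and a box H/ACA snoRNA show the cargo of 2 hosts, as annotated on mm10. Snord47 lies in Gas5 at chr1:161038082-161038158 (plus), with its first TGATGA (the C box motif) and its last CTGA (the D box motif) in capitals. These were found by sequence alone, and whether they serve as the boxes was not tested. Of 458 annotated snoRNAs under 100 bases, 70.3% hold both motifs on their own strand. Snora24 lies in Snhg8 at chr3:123507937-123508066 (minus), with the ACA that ends this class in capitals; 63.2% of 1049 annotated snoRNAs of 100 bases or more have ACA in their last 10 bases.
Snord47: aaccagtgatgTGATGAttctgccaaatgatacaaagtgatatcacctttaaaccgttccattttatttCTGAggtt
Snora24: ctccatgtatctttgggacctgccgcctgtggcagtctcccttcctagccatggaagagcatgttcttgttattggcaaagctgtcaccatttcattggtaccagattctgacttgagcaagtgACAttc

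Promoter windows from RefSeq (GRCm38.p6) were matched for 7 of the 8 hosts, with 2 windows for Gas5, and Snhg6 had none. The longest run of C and T that holds the annotated start, or begins within 10 bases after it, was searched on the gene's own strand because a TOP tract begins there. It was at least 6 bases long in 5 of the 8 windows, against 18.5% of 32851 windows of all genes, with a median of 6.5 bases in the host windows and 3 in all windows. The 5 are printed from 50 bases before to 30 bases from the annotated start on, with the run in capitals. Gas5 is at chr1:161035116-161035195 (plus), Snhg1 at chr19:8723437-8723516 (plus), Snhg5 at chr9:88522868-88522947 (minus), Snhg8 at chr3:123508307-123508386 (minus) and Snhg12 at chr4:132308628-132308707 (plus).
Gas5: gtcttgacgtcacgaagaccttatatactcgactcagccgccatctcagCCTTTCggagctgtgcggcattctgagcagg
Snhg1: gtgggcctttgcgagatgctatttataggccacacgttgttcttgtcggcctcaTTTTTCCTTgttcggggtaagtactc
Snhg5: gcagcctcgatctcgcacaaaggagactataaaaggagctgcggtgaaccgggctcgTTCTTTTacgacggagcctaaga
Snhg8: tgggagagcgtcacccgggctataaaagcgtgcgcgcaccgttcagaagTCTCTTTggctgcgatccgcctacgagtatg
Snhg12: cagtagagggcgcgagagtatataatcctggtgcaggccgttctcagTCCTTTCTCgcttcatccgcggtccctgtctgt

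The run was shorter in the other 3 windows, with 5 bases in Snhg3, 3 in the upstream window of Gas5 and 2 in Zfas1. The annotated start may be a few bases from the base where transcription begins, so a run shows only what stands near it. Of the printed runs, that of Gas5 begins with C and those of Snhg1, Snhg5, Snhg8 and Snhg12 begin with T. The runs of Snhg1 and Snhg5 begin 4 and 7 bases after the annotated start. Whether the runs serve as TOP tracts was not tested. TATAA on the gene's strand within 50 bases before the start, a motif searched after the sequences had been seen, was in 3 of the 8 windows (Snhg5, Snhg8 and Snhg12), against 4.93% of all windows. CACGTG, the motif bound by Myc and related factors, which reads the same on both strands, was in 0 of the 8 windows of 300 bases and in 7.15% of all.

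TPM, which divides counts by effective transcript length, allows the hosts to be set beside each other. Gas5 was the most abundant, at 943.21, 903.89 and 859.71 TPM in the 3 IL-1b-treated libraries, 722.17, 804.00 and 737.23 TPM in the cultured ones and 573.41, 581.71 and 575.57 TPM in the fresh ones. Its 3 groups did not overlap, with IL-1b-treated highest and fresh lowest. Snhg8, the host of Snora24, followed with 323.94, 386.21 and 359.16 TPM in IL-1b-treated, 287.97, 269.68 and 278.24 in cultured and 169.96, 193.32 and 212.64 in fresh libraries, in the same order of groups and without overlap. Snhg1, with 8 snoRNAs inside, stood at 169.67, 162.81 and 172.08 TPM in IL-1b-treated, 142.05, 157.39 and 145.74 in cultured and 183.84, 154.12 and 156.82 in fresh libraries. The fresh values of Snhg1 overlapped those of both other groups. Zfas1 had 133.79, 158.63 and 157.71 TPM in IL-1b-treated, 135.75, 140.80 and 135.43 in cultured and 117.24, 116.35 and 118.29 in fresh libraries, so that fresh lay below both and the 2 cultured groups overlapped.

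The other 4 hosts were lower. Snhg12, host of box H/ACA snoRNAs such as Snora44 and Snora61, had 75.17, 57.37 and 70.76 TPM in IL-1b-treated, 76.50, 70.10 and 71.27 in cultured and 104.98, 101.03 and 103.76 in fresh libraries, which made it the 1 host with its highest level in fresh cells without overlap. Snhg3, which holds Snora73a and Snora73b, had 77.63, 48.77 and 65.77 TPM in IL-1b-treated, 56.41, 62.27 and 51.83 in cultured and 32.49, 30.36 and 17.48 in fresh libraries. Its fresh libraries were lowest, and the libraries of the 2 cultured groups overlapped. Snhg5, host of Snord50a and Snord50b, had 53.01, 47.38 and 50.68 TPM in IL-1b-treated, 45.03, 46.09 and 34.48 in cultured and 47.24, 54.60 and 56.21 in fresh libraries, with cultured below both other groups. Snhg6, host of Snord87, had 55.92, 38.66 and 52.10 TPM in IL-1b-treated, 60.03, 56.94 and 50.59 in cultured and 55.43, 53.13 and 45.45 in fresh libraries, and all of its groups overlapped.

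**Figure D1:**
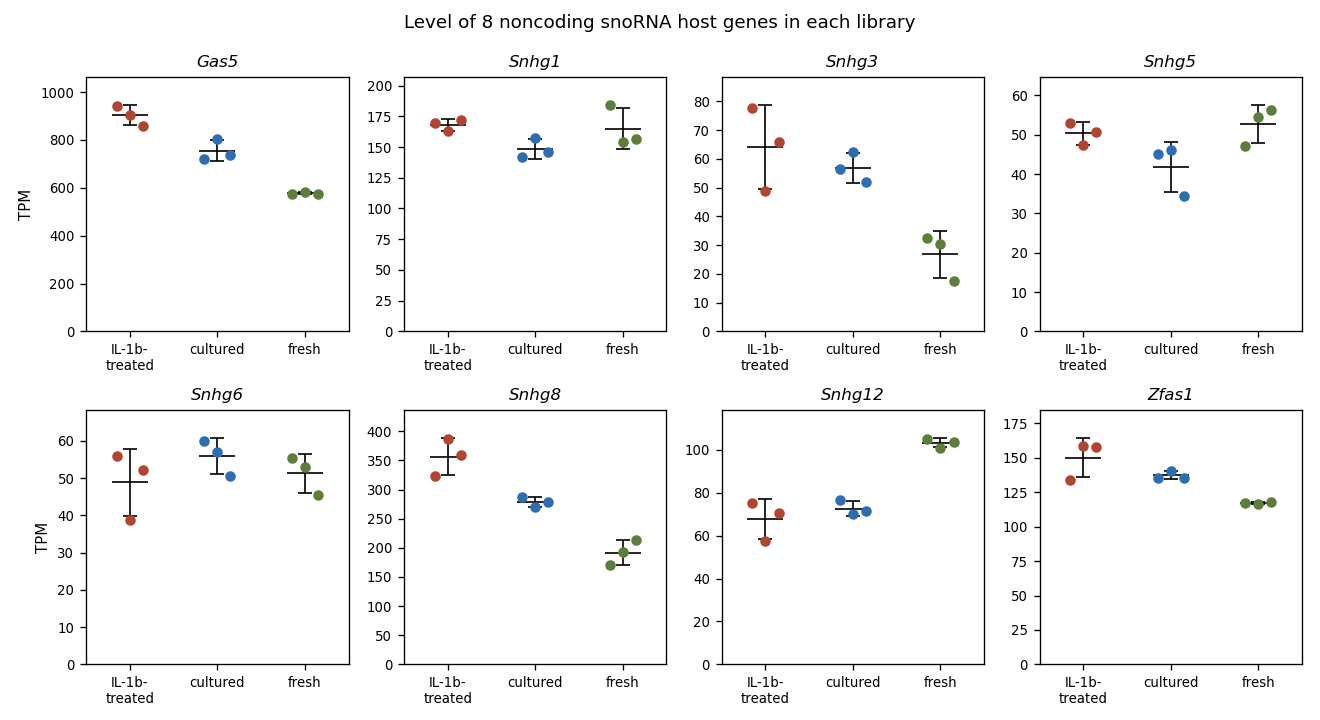
Level of each host gene in TPM (vertical axes, each starting at 0) in the 3 IL-1b-treated, 3 cultured and 3 fresh libraries; points are libraries, and bars are the mean with 1 SD. Gas5 and Snhg8 fall stepwise from left to right without overlap, Snhg12 is highest in fresh cells, and the groups of Snhg6 overlap.

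Together the 8 hosts summed to 1808 ± 22.5 TPM in IL-1b-treated cells, 1546 ± 54.1 TPM in cultured cells and 1285 ± 0.93 TPM in fresh cells (SD, n = 3 each). As a share of all expected counts they took 0.0670 ± 0.00039% in IL-1b-treated cells, 0.0515 ± 0.0023% in cultured cells and 0.0497 ± 0.00061% in fresh cells. Gas5 alone held 49.1 ± 0.99%, 48.4 ± 1.1% and 43.3 ± 0.64% of the counts of the 8 in IL-1b-treated, cultured and fresh cells. In bulk RNA, fewer cells of a type and less RNA per cell cannot be told apart.

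The first comparison asks what IL-1b changed within the same 20 h of culture. Of the 8 hosts, 6 rose in IL-1b-treated over cultured cells and 0 fell. Snhg8 rose most, by 1.63-fold, followed by Snhg5, Gas5, Zfas1 and Snhg1 at 1.37- to 1.47-fold. Snhg12 rose by 1.15-fold, and Snhg3 and Snhg6 did not pass the test.
Levels in this and the next comparisons are CPM scaled by TMM (trimmed mean of M values), ± is the SE of a log2 fold change or otherwise the SD, and adjusted p-values come from the quasi-likelihood test of edgeR, corrected by the Benjamini-Hochberg method over all 13043 genes at a threshold of 0.05. Over all genes tested 28.9% were called in this comparison, 15.6% higher and 13.3% lower. The CPM of the groups did not overlap for those same 6 hosts, against 40.3% of all genes (21.1% higher, 19.1% lower). The median log2 fold change was 0.47 over the 8 hosts and -0.01 over all genes.

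Gas5 had 360.6, 352.1 and 341.7 CPM in IL-1b-treated and 239.4, 263.5 and 234.3 CPM in cultured libraries. Every IL-1b-treated library lay above every cultured one, and the log2 fold change was 0.52 ± 0.04 (adjusted p = 2.0e-09). Snhg8 had 75.67, 91.98 and 85.88 CPM in IL-1b-treated and 52.99, 51.19 and 51.00 CPM in cultured libraries, a log2 fold change of 0.71 ± 0.08 (adjusted p = 4.1e-07). The IL-1b-treated libraries were again all higher, and they were spread more widely than the cultured ones. Snhg5 had 54.03, 48.83 and 52.13 CPM in IL-1b-treated and 38.39, 37.20 and 29.89 CPM in cultured libraries, with the third cultured library the lowest. Its log2 fold change was 0.56 ± 0.09 (adjusted p = 4.5e-05). Zfas1 had 61.54, 73.39 and 73.67 CPM in IL-1b-treated and 48.88, 51.99 and 48.95 CPM in cultured libraries, without overlap. Its log2 fold change was 0.48 ± 0.07 (adjusted p = 3.1e-05). Snhg1 had 93.34, 82.36 and 89.04 CPM in IL-1b-treated and 62.70, 67.35 and 62.89 CPM in cultured libraries, also without overlap. Its log2 fold change was 0.46 ± 0.06 (adjusted p = 3.4e-06).

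Snhg12 had 43.69, 41.29 and 41.06 CPM in IL-1b-treated and 38.00, 34.91 and 36.86 CPM in cultured libraries. The groups did not overlap, but the change was small, with a log2 fold change of 0.20 ± 0.07 and an adjusted p of 0.042. That call was lost with DESeq2 (adjusted p = 0.058) and in 6 of the 9 fits that left out 1 library, with adjusted p from 0.041 to 0.15. Snhg3 had 16.53, 10.41 and 13.89 CPM in IL-1b-treated and 9.65, 11.08 and 8.84 CPM in cultured libraries. IL-1b-treated replicate 2 lay within the cultured range, and the log2 fold change of 0.47 ± 0.20 was not called (adjusted p = 0.091). Without that library it was 0.63 and was called (adjusted p = 0.032). Without fresh replicate 3, which enters this comparison only through the shared spread, it was 0.47 (adjusted p = 0.039). Snhg6 had 16.89, 14.43 and 14.83 CPM in IL-1b-treated and 15.51, 14.55 and 13.51 CPM in cultured libraries, which overlapped, with a log2 fold change of 0.09 ± 0.12 (adjusted p = 0.67).

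Fewer hosts were called on log2(TPM + 1), where the unit, the scaling and the test (limma) all differ and the part of each was not tested. There the median of all genes was -0.25 between IL-1b-treated and cultured cells, and 36.3% of genes were called, 2.22% higher and 34.1% lower. On that scale 2 hosts were called, Gas5 at 0.26 ± 0.05 (adjusted p = 0.0022) and Snhg8 at 0.35 ± 0.08 (adjusted p = 0.0098). The other 6 were not called, with log2 changes of 0.27 for Snhg5, 0.18 for Snhg1, 0.15 for Snhg3, 0.12 for Zfas1, -0.11 for Snhg12 and -0.20 for Snhg6. Relative to the median gene on that scale all 8 were positive, from 0.05 for Snhg6 to 0.60 for Snhg8. The TPM of the groups did not overlap for 4 hosts, Gas5, Snhg1, Snhg5 and Snhg8, all higher, against 48.8% of all genes (3.76% higher, 45% lower). With the effective length of each library as an offset 5 hosts were called, all higher, against 16.5% of all genes (9.46% higher, 7.03% lower). With the trend of each library on length and GC content removed from the counts, the changes were smaller, and 4 hosts were called, all higher, against 18.1% of all genes (10.6% higher, 7.51% lower): Gas5 at 0.16, Snhg1 at 0.16, Snhg5 at 0.33 and Snhg8 at 0.36. Zfas1 was then at 0.18, Snhg3 at 0.07, Snhg12 at -0.05 and Snhg6 at -0.30, none of them called.

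**Figure D2:**
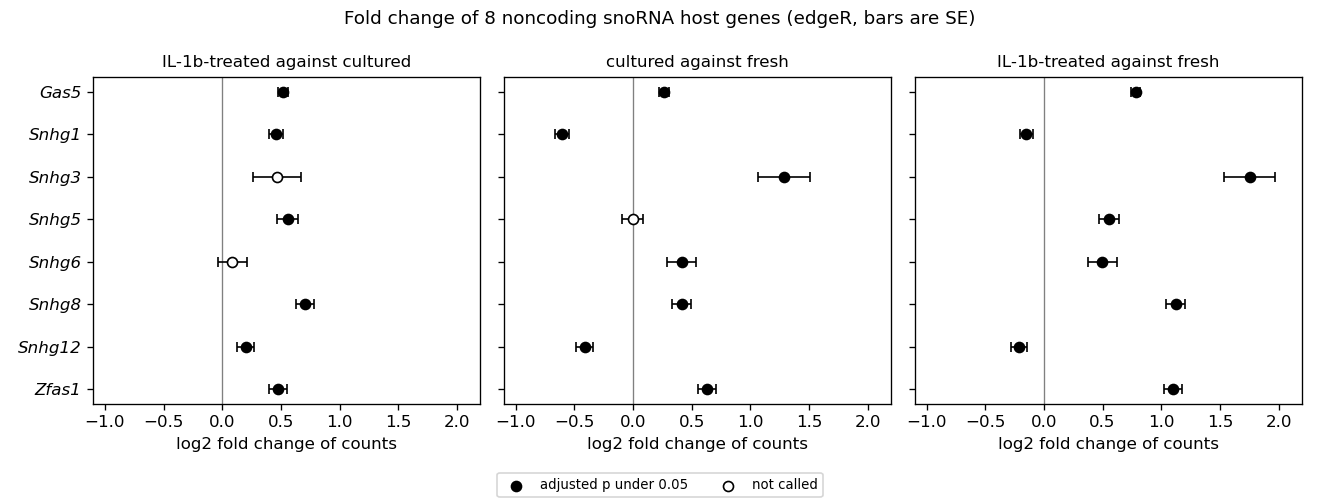
Log2 fold change of counts (horizontal axis) of each host gene in the 3 comparisons, from edgeR; bars are the SE, filled points passed an adjusted p of 0.05 and open points did not. IL-1b-treated against cultured cells shows 6 filled points, all to the right of 0, while Snhg1 and Snhg12 lie to the left of 0 against fresh cells.

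The second comparison shows what 20 h of culture without cytokine changed. Snhg3, Zfas1, Snhg8, Snhg6 and Gas5 rose in cultured over fresh cells, Snhg1 and Snhg12 fell, and Snhg5 did not pass the test. Snhg3 rose most, by 2.44-fold, and Zfas1 by 1.54-fold, while Snhg1 stood at 0.656 of its fresh level. Of all genes tested 58.2% were called, 29.4% higher and 28.9% lower, so 7 called of 8 stands beside a background in which most genes differed. The CPM of the groups did not overlap for the same 7 hosts, against 65.5% of all genes (32.7% higher, 32.8% lower). The median log2 fold change was 0.34 over the 8 hosts and 0.0038 over all genes.

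Snhg3 had 5.0, 4.57 and 2.25 CPM in fresh libraries, below every cultured library, with a log2 fold change of 1.28 ± 0.22 (adjusted p = 3.1e-05). The third fresh library held 32.09 expected counts of it, the lowest of any host. Zfas1 had 33.12, 31.95 and 31.82 CPM in fresh libraries, all below the cultured ones, and its log2 fold change was 0.63 ± 0.08 (adjusted p = 2.7e-07). Snhg8 had 34.36, 39.62 and 43.15 CPM in fresh libraries, likewise all lower, with a log2 fold change of 0.42 ± 0.08 (adjusted p = 0.00015). Gas5 had 210.4, 202.1 and 200.4 CPM in fresh libraries, below its 3 cultured values, with a log2 fold change of 0.27 ± 0.04 (adjusted p = 8.6e-06). Snhg6 had 11.21, 11.76 and 9.64 CPM in fresh libraries, also below the cultured ones, and its log2 fold change was 0.41 ± 0.13 (adjusted p = 0.0077).

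Snhg1 had 102.3, 97.94 and 93.41 CPM in fresh libraries, above every other library, the nearest being IL-1b-treated replicate 1 at 93.34 CPM. Its log2 fold change in cultured cells was -0.61 ± 0.06 (adjusted p = 6.5e-09). Snhg12 had 48.96, 47.69 and 49.62 CPM in fresh libraries, above all other libraries, with a log2 fold change of -0.41 ± 0.07 in cultured cells (adjusted p = 3.0e-05). Snhg5 had 33.08, 36.83 and 35.97 CPM in fresh libraries, inside the cultured range of 29.89 to 38.39 CPM, with a log2 fold change of -0.0026 ± 0.09 (adjusted p = 0.98).

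Several of these directions differed between scales, which also differ in scaling and test. On log2(TPM + 1), where the median of all genes was -0.19 and 51.5% of genes were called (14.4% higher, 37.1% lower), 4 hosts rose and 2 fell. Gas5 rose by 0.39 ± 0.05, Snhg8 by 0.54 ± 0.08, Snhg3 by 1.10 ± 0.23 and Zfas1 by 0.23 ± 0.06, while Snhg12 fell by 0.50 ± 0.09 and Snhg5 by 0.33 ± 0.11 (adjusted p = 0.033). Snhg1 was at -0.15 ± 0.07 (adjusted p = 0.099) and Snhg6 at 0.12 ± 0.13 (adjusted p = 0.48). The TPM of the groups did not overlap for the 6 called hosts, against 60.4% of all genes (17.3% higher, 43.1% lower). With the effective length of each library as an offset 4 hosts were called, all higher, against 47% of all genes (23.8% higher, 23.1% lower): Gas5 at 0.63, Snhg8 at 0.78, Snhg3 at 1.30 and Zfas1 at 0.47. Snhg1, the steepest fall on counts, was then at 0.09 ± 0.08 (adjusted p = 0.39). The offset divides counts by effective length, which for Snhg1 was 537.53 to 584.97 bases in IL-1b-treated, 569.50 to 584.34 in cultured and 864.48 to 989.94 in fresh libraries. With the trend on length and GC content removed the split was 2 higher and 4 lower, against 54.3% of all genes called (27.7% higher, 26.6% lower). Snhg3 at 0.77 and Zfas1 at 0.27 were higher, and Snhg1 at -1.15, Snhg12 at -0.78, Snhg5 at -0.38 and Gas5 at -0.29 were lower, so the rise of Gas5 on counts was reversed. Snhg3 and Zfas1 rose, and were called, on all 4 scales.

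The third comparison sets IL-1b-treated against fresh cells and shares its libraries with the others. All 8 hosts were called, with 6 higher and 2 lower, where 65.5% of all genes were called, 32.9% higher and 32.6% lower. The CPM of the groups overlapped for 0 of the 8, and did not overlap for 68.1% of all genes (34% higher, 34.1% lower). The median log2 fold change was 0.67 over the hosts and -0.01 over all genes. Snhg3 rose by 3.37-fold (log2 1.75 ± 0.22), Snhg8 by 2.18-fold (1.12 ± 0.08) and Zfas1 by 2.15-fold (1.10 ± 0.08). Gas5 rose by 1.72-fold (0.78 ± 0.04), Snhg5 by 1.47-fold (0.55 ± 0.09) and Snhg6 by 1.41-fold (0.50 ± 0.13). Snhg12 fell by 0.21 ± 0.07 on the log2 scale (adjusted p = 0.011). Snhg1 fell by 0.15 ± 0.06 (adjusted p = 0.026), a call lost in 4 of the 9 fits that left out 1 library, with adjusted p of up to 0.16.

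On log2(TPM + 1) 5 hosts passed the test in IL-1b-treated against fresh cells, beside 66.2% of all genes (11.7% higher, 54.5% lower) and a median of all genes of -0.45. Gas5 rose by 0.64 ± 0.05, Snhg8 by 0.89 ± 0.08, Snhg3 by 1.25 ± 0.23 and Zfas1 by 0.35 ± 0.06, and Snhg12 fell by 0.61 ± 0.09. Snhg1 at 0.03, Snhg5 at -0.06 and Snhg6 at -0.08 were not called. The TPM of the groups did not overlap for the 5 called hosts, against 69% of all genes (12.6% higher, 56.4% lower). With the effective length offset 7 hosts were higher, against 56.5% of all genes called, 28.7% higher and 27.8% lower. Snhg1 was among them at 0.58 ± 0.08 (adjusted p = 5.3e-05), the reverse of its direction on counts, and Snhg12 at -0.06 was not called. With the trend on length and GC content removed 7 were called, against 61.1% of all genes (30.8% higher, 30.3% lower), of which Snhg3 at 0.84, Zfas1 at 0.44 and Snhg8 at 0.41 were higher, and Snhg1 at -0.98, Snhg12 at -0.83, Snhg6 at -0.43 and Gas5 at -0.13 were lower.

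**Figure D3:**
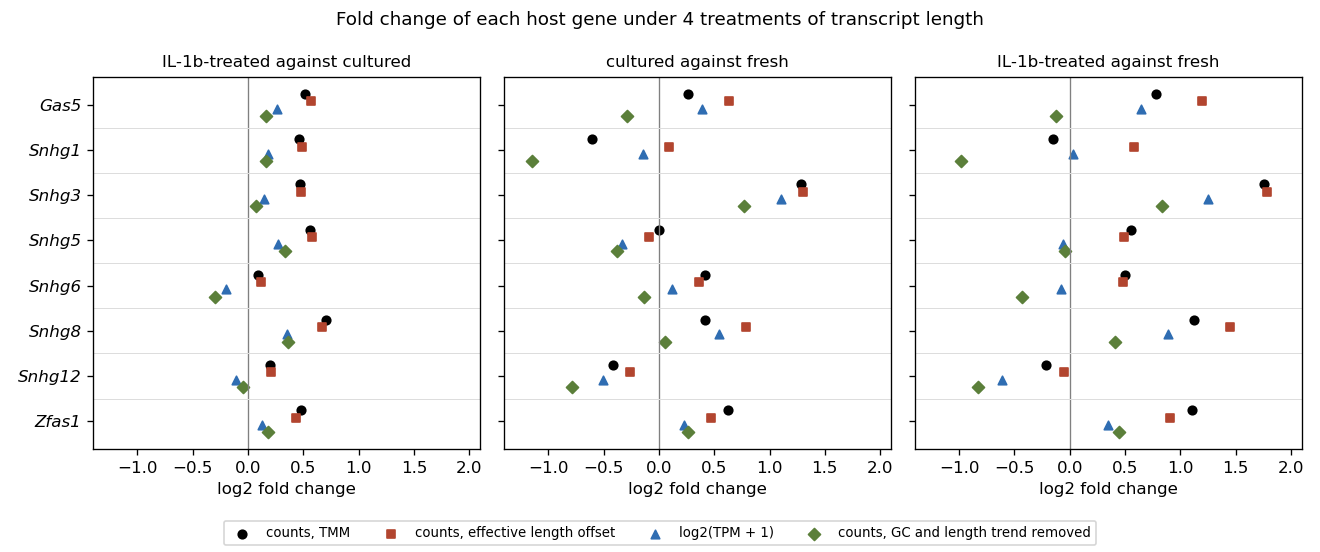
Log2 fold change of each host gene (horizontal axis) in the 3 comparisons, computed from counts with TMM scaling (circles), counts with each library's effective length as an offset (squares), log2(TPM + 1) (triangles) and counts with the trend on length and GC content removed (diamonds). Snhg3, Snhg8 and Zfas1 keep all 4 symbols on the right of 0 in all 3 panels, and the symbols of Gas5 and Snhg1 fall on both sides of 0 against fresh cells.

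Snhg3, Snhg8 and Zfas1 were higher in IL-1b-treated than in fresh cells, and were called, on all 4 scales. Gas5, the most abundant host, was called on all 4 but in both directions.

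The mix of isoforms was a second measure, estimated from the same reads as the counts and so not independent of them. The deposited tables give for each gene in each library a length in bases that is the mean over its isoforms, weighted by their abundance. It was tested with limma on log2 length over the 10485 tested genes whose length differed between libraries. Of the 8 hosts, 4 differed between cultured and fresh cells, Gas5, Snhg1 and Snhg8 with shorter and Zfas1 with longer RNA, where 0.668% of all genes were called, 0.334% longer and 0.334% shorter. The same 4 hosts passed in IL-1b-treated against fresh cells, beside 1.34% of all genes, 0.477% longer and 0.868% shorter. Between IL-1b-treated and cultured cells 0 of the 8 were called, beside 0.0191% of all genes, 0.00954% longer and 0.00954% shorter. The lengths of the groups did not overlap for 3, 5 and 4 of the hosts in IL-1b-treated against cultured, cultured against fresh and IL-1b-treated against fresh cells. Among all genes this held for 12.2% (5.47% longer, 6.69% shorter), 18.6% (8.99% longer, 9.63% shorter) and 19.8% (9.2% longer, 10.6% shorter).

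Snhg1 shortened most. Its mean length was 802.04, 751.35 and 764.78 bases in IL-1b-treated, 810.26, 782.23 and 791.69 in cultured and 1090.06, 1224.31 and 1162.62 in fresh libraries. Both cultured groups lay far below the fresh one, with a change of -31.4% in cultured (adjusted p = 0.0067) and -33.3% in IL-1b-treated against fresh cells (adjusted p = 0.0055). The annotation gives Snhg1 18 isoforms of 312 to 2728 bases, of which 14 are marked as retaining an intron, with a median of 628 bases against 550 for the other 4.

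Gas5 was 623.68, 627.84 and 637.77 bases long in IL-1b-treated, 664.86, 648.99 and 641.72 in cultured and 795.85, 775.92 and 779.28 in fresh libraries. The change was -16.8% in cultured (adjusted p = 0.0063) and -19.6% in IL-1b-treated against fresh cells (adjusted p = 0.0031). Each IL-1b-treated library was also shorter than each cultured one, but that difference of -3.38% was not called (adjusted p = 0.70). Of its 25 isoforms, of 346 to 2556 bases, 20 are marked as retaining an intron, with a median of 674 bases against 502 for the other 5.

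Snhg8 was 465.41, 466.93 and 469.49 bases long in IL-1b-treated, 469.47, 465.32 and 464.03 in cultured and 539.82, 553.73 and 553.93 in fresh libraries. The 2 cultured groups overlapped and the fresh group stood apart, with a change of -15.1% in cultured (adjusted p = 0.0053) and -14.9% in IL-1b-treated cells (adjusted p = 0.0035). Its annotation holds 3 isoforms, and the 1 that retains an intron is 776 bases long against a median of 488 for the other 2.

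Zfas1 moved the other way, at 706.35, 705.59 and 711.79 bases in IL-1b-treated, 702.79, 704.33 and 699.25 in cultured and 664.82, 662.56 and 656.65 in fresh libraries. The gain was 6.17% in cultured (adjusted p = 0.043) and 7.04% in IL-1b-treated against fresh cells (adjusted p = 0.024). These are weak calls: the first was lost in each of the 9 fits that left out 1 library, with adjusted p from 0.071 to 0.14, and the second in 7 of them, with adjusted p from 0.049 to 0.075. The values themselves did not overlap between the cultured groups and fresh cells.

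The other 4 were not called in any comparison with all 9 libraries. Snhg12 was 835.23, 978.75 and 831.94 bases long in IL-1b-treated, 883.67, 875.72 and 904.93 in cultured and 950.43, 970.12 and 981.14 in fresh libraries, and IL-1b-treated replicate 2 lay with the fresh ones. Without that library its difference between IL-1b-treated and fresh cells was -0.21 on the log2 scale and was called (adjusted p = 0.026). Snhg5 was 1232 to 1366 bases long over all libraries, Snhg6 518 to 611 and Snhg3 439 to 469. The tables list 28 isoforms of Snhg5, of which 6 were in the annotation used here, so its isoforms were not described further.

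**Figure D4:**
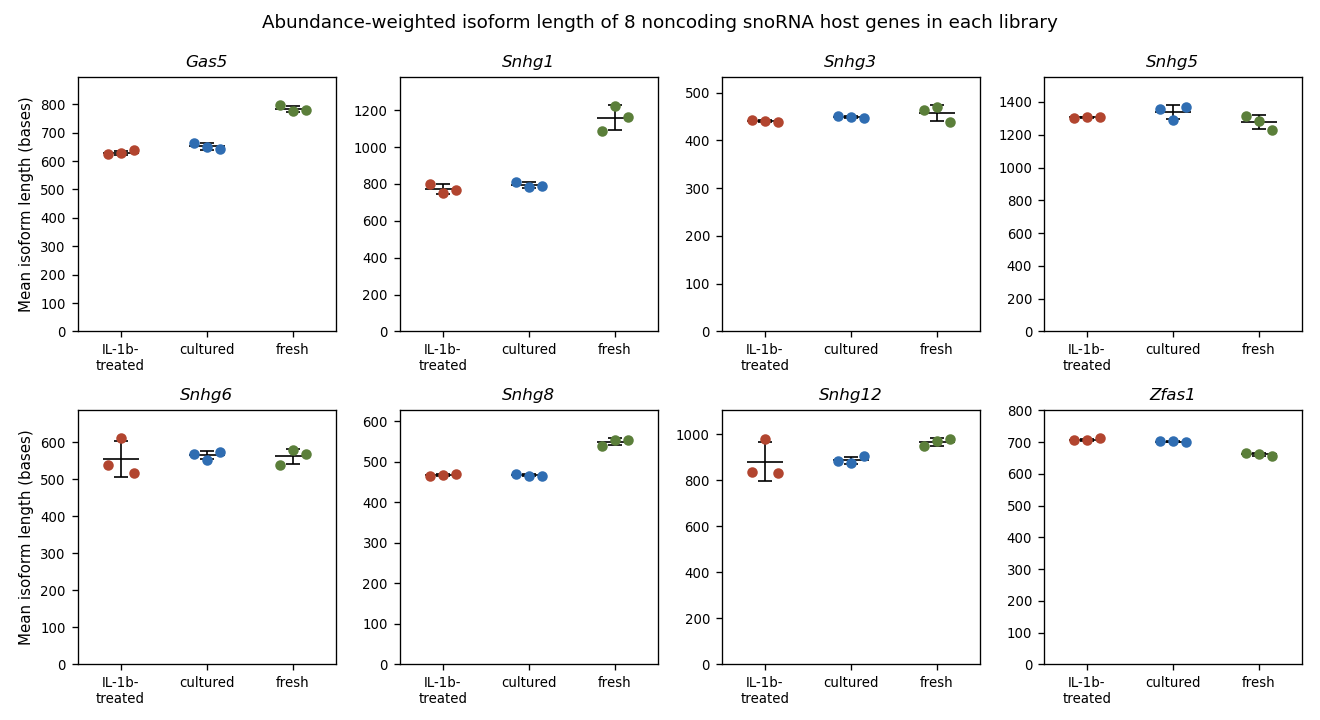
Mean isoform length of each host gene in bases (vertical axes, each starting at 0) in the 3 IL-1b-treated, 3 cultured and 3 fresh libraries; points are libraries, and bars are the mean with 1 SD. Gas5, Snhg1 and Snhg8 are longest in fresh cells and Zfas1 is shortest there, with little between the 2 cultured groups.

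Reads of some hosts could be shared with other genes. Snhg3 lies almost wholly inside Rcc1 on the same strand, over 5592 bases, and was the 1 host whose expected counts were not whole numbers in every library (tolerance 0.005), while the other 7 had whole counts throughout. Gas5 overlaps Zbtb37 on the opposite strand by 428 bases, Snhg6 overlaps Mcmdc2 by 127 and Zfas1 overlaps Znfx1 by 82. The strand setting of the quantification is not given in the sources used here, so values of these pairs are less certain. Each partner tested had a value of its own. Rcc1 had a log2 fold change of 0.01 ± 0.12 in IL-1b-treated against cultured cells and of -0.08 ± 0.11 in cultured against fresh cells, neither called, while Snhg3 was at 0.47 and 1.28. Zbtb37 fell by 0.28 ± 0.05 with IL-1b, though it was at 0.02 with the effective length offset, and was at -0.04 ± 0.05 in cultured against fresh cells. Znfx1, a helicase gene, fell by 0.36 ± 0.06 with IL-1b and by 0.84 ± 0.06 in culture, where Zfas1 rose both times.

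Genes next to the hosts on the chromosome were followed as a group of 9 coding neighbours, 8 of them tested. In IL-1b-treated against cultured cells 2 were higher and 2 lower, with a median log2 fold change of 0.05 (-0.25 on the TPM scale). Trnau1ap, the neighbour of Snhg12, rose by 0.54 ± 0.09, and Syncrip, the neighbour of Snhg5, rose by 0.12 ± 0.04, though it was at -0.22 on the TPM scale and lost its call in 3 of the 9 fits that left out 1 library (adjusted p of up to 0.132). Of the list, 3 were higher and 2 lower in cultured against fresh cells, and their median was 0.02 (but -0.28 in TPM). Trnau1ap rose by 0.36 ± 0.09 and Wdr74 by 0.28 ± 0.09 (a call lost in 3 such fits, with adjusted p of up to 0.0726), Syncrip rose by 0.19 ± 0.04 though it was at -0.06 on the TPM scale, and Slc3a2, which like Wdr74 lies beside Snhg1, fell by 0.66 ± 0.07. On the TPM scale Trnau1ap at 0.07 and Wdr74 at 0.08 were not called there (adjusted p = 0.492 and 0.504 with limma). In IL-1b-treated against fresh cells 3 were higher and 3 lower, with a median of -0.10, among them Trnau1ap at 0.89 ± 0.09, Slc3a2 at -0.57 ± 0.07, Zbtb37 at -0.32 ± 0.05 and Znfx1 at -1.20 ± 0.06, while Wdr74 at 0.48 ± 0.09 and Syncrip at 0.31 ± 0.04 were negative on the TPM scale. Rcc1 and Prss12 were not called in any of the 3 comparisons. Over all genes tested 28.9%, 58.2% and 65.5% were called, in the same order of comparisons. The medians of all genes on the TPM scale were -0.253, -0.195 and -0.449.

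Among themselves the hosts fell into different shapes over the 9 libraries. Likeness was the root mean square difference in log2 CPM over the 9 libraries after centring each gene on its own mean, given as a description. The closest pair was Snhg1 and Snhg12, with a difference of 0.131, the 2 hosts that were lowest in cultured cells and highest in fresh ones. Snhg8 and Zfas1 followed at 0.146, and Gas5 and Snhg5 at 0.158. Snhg1 and Snhg3 were farthest apart at 0.970. Among all other named genes tested, the nearest were Sarnp (0.042), Sra1 and Nmi for Gas5, Cd52 (0.073), Cd96 and Taf15 for Snhg1, and Slc39a4 (0.270), Phtf1os and Rexo2 for Snhg3. They were Nup107 (0.094), Mad2l1 and Hspe1 for Snhg5, and Usb1 (0.059), Pgm2l1 and Shoc2 for Snhg6. They were Ifi27l2a (0.076), Mrpl35 and Rpl13a for Snhg8, Il2rg (0.043), Cdk2ap2 and Clta for Snhg12, and Use1 (0.056), Prdx2 and Adh5 for Zfas1. No gene was nearest to more than 1 host, and Snhg3, with the fewest counts, had the most distant neighbours.

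Other genes of the snoRNA pathway were read beside the 8 hosts from lists of known genes. Each list is given by its counts called with edgeR and its median log2 fold change on counts, beside medians of all genes of -0.01, 0.0038 and -0.01 in IL-1b-treated against cultured, cultured against fresh and IL-1b-treated against fresh cells. The counts stand beside 28.9% of all genes called in the first (15.6% higher, 13.3% lower), 58.2% in the second (29.4% higher, 28.9% lower) and 65.5% in the third (32.9% higher, 32.6% lower). Values on the TPM scale stand beside medians of all genes on that scale of -0.253, -0.195 and -0.449, in the same order. A value below 0 on that scale can thus still lie above the median gene. Of 12 other noncoding hosts 7 were tested, and 3 were higher and 1 lower in IL-1b-treated against cultured cells (median 0.10, but -0.08 on the TPM scale). Dancr rose by 0.67 ± 0.19 and Epb41l4aos by 0.41 ± 0.14, and Snhg20 rose by 0.28 ± 0.09 but was at -0.04 on the TPM scale. Of the 9 fits that left out 1 library, the call of Epb41l4aos was lost in 4 (adjusted p of up to 0.125), that of Snhg20 in 2 (up to 0.168) and that of Dancr in 1, without cultured replicate 1 (0.0602). That of Epb41l4aos was also lost with library size alone (0.118) and with the effective length offset (0.219). In cultured against fresh cells 4 were higher and 0 lower (median 0.36), with Epb41l4aos at 1.18 ± 0.15, Snhg20 at 0.87 ± 0.10 and Snhg15 at 0.36 ± 0.09. Snhg15 was not called on the TPM scale, at 0.09 (adjusted p = 0.438 with limma). Nor was it called with the trend on length and GC content removed, at 0.17 (adjusted p = 0.103 with edgeR). Against fresh cells 5 were higher and 1 lower with IL-1b (median 0.92), led by Epb41l4aos at 1.59 ± 0.15, Snhg20 at 1.15 ± 0.10 and Dancr at 0.92 ± 0.19. With the trend on length and GC content removed, Dancr was there at 0.23 and not called (adjusted p = 0.304 with edgeR).

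Of the 27 protein-coding snoRNA hosts, most of them ribosomal protein and translation genes, 24 were higher and 1 lower in IL-1b-treated against cultured cells, with a median of 0.41. Rpl23a rose by 0.62 ± 0.02, Rps3 by 0.58 ± 0.02 and Rpl13a by 0.67 ± 0.03, sizes in the range of Gas5, Snhg5 and Snhg8. Of the list, 23 were higher and 1 lower in cultured against fresh cells (median 0.43), with Rpl3 at 0.67 ± 0.02, Rpl23a at 0.62 ± 0.02 and Rpl17 at 0.67 ± 0.02. Against fresh cells 25 were higher and 2 lower with IL-1b (median 0.85), with Rpl23a at 1.24 ± 0.02, Rpl3 at 1.15 ± 0.02 and Rpl4 at 0.96 ± 0.02. The medians stayed positive on the TPM scale, at 0.08, 0.19 and 0.30.

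The 8 proteins of mature snoRNPs, of which Nop56 is also among the coding snoRNA hosts, were mostly higher on counts. With IL-1b 7 were higher and 0 lower than in cultured cells (median 0.30, but -0.05 on the TPM scale), among them the box H/ACA proteins Nop10 at 0.64 ± 0.06 and Nhp2 at 0.66 ± 0.09 and the box C/D protein Nop58 at 0.38 ± 0.05. In cultured against fresh cells 6 were higher and 2 lower (median 0.39), with Nop10 at 0.94 ± 0.06 and the pseudouridine synthase Dkc1 at 0.49 ± 0.05, while Nop56 at 0.36 ± 0.04 was at -0.02 on the TPM scale. Against fresh cells 6 were higher and 1 lower with IL-1b (median 0.60, but -0.07 on the TPM scale), with Nop10 at 1.58 ± 0.06 and Nop58 at 0.81 ± 0.05, and with Nop56 at 0.62 ± 0.04 but -0.11 on the TPM scale. Of the 9 snoRNP assembly factors 3 were higher and 0 lower with IL-1b (median 0.16, but -0.16 on the TPM scale), Pih1d1 at 0.41 ± 0.10, Znhit6 at 0.40 ± 0.13 and Znhit3 at 0.49 ± 0.18. The call of Znhit3 was lost in 5 of the 9 fits that left out 1 library (adjusted p of up to 0.202) and with DESeq2 (0.0570), and that of Znhit6 in 3 (up to 0.129). Of the list, 2 were higher and 3 lower in cultured against fresh cells (median -0.12), with Ruvbl1 at 0.37 ± 0.08, Naf1 at 0.59 ± 0.17 (adjusted p = 0.0562 without fresh replicate 1) and Nufip1 at -0.37 ± 0.11. Against fresh cells 5 were higher and 1 lower with IL-1b (median 0.29, but -0.13 on the TPM scale). There Nufip1 was at -0.53 ± 0.11, and Ruvbl1 at 0.53 ± 0.08 and Znhit3 at 0.71 ± 0.18 were both at -0.02 on the TPM scale.

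Factors of nonsense-mediated decay, the route known to remove spliced Gas5, formed the next list. Of 16 factors 2 were higher and 6 lower with IL-1b than in cultured cells (median -0.11), with the kinase Smg1 at -0.26 ± 0.03 and the exon junction proteins Casc3 at -0.31 ± 0.05 and Magoh at 0.66 ± 0.08. In cultured against fresh cells 4 were higher and 11 lower (median -0.32), with the helicase Upf1 at -0.79 ± 0.05, Smg1 at -0.46 ± 0.03 and Dhx34 at -0.90 ± 0.10. With the effective length offset Smg1 was not called in IL-1b-treated against cultured cells, at -0.25 (adjusted p = 0.0642 with edgeR). Nor was it called with that offset in cultured against fresh cells, at -0.17 (adjusted p = 0.12 with edgeR). Against fresh cells 4 were higher and 11 lower with IL-1b (median -0.44), with Upf1 at -1.11 ± 0.05, Smg1 at -0.72 ± 0.03 and Magoh at 1.32 ± 0.08. Of 11 tested genes with transcripts known to be sensitive to the pathway, 5 were higher and 0 lower with IL-1b (median 0.19, but -0.12 on the TPM scale). Of these, Srsf3 at 0.32 ± 0.03 was at 0.05 on the TPM scale, and Tra2b at 0.31 ± 0.04 and Srsf7 at 0.25 ± 0.04 were at -0.05 and -0.02. Of the list, 5 were higher and 5 lower in cultured against fresh cells (median 0.0071, but -0.20 on the TPM scale), with Trib3 at 2.96 ± 0.14, Srsf2 at 0.53 ± 0.03 and Atf4 at -0.51 ± 0.05. Against fresh cells 6 were higher and 3 lower with IL-1b (median 0.31, but -0.25 on the TPM scale), with Trib3 at 2.91 ± 0.14, and with Srsf2 at 0.50 ± 0.03 and Srsf3 at 0.43 ± 0.03, which were at -0.18 and -0.03 on the TPM scale.

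TOP messengers were read next, because runs of C and T also stood near the annotated start of several hosts. Of 15 TOP messengers, mostly of translation factors, 9 were higher and 2 lower with IL-1b than in cultured cells (median 0.30, but -0.03 on the TPM scale). Among the 15, Eef2, Tpt1 and Rack1 are themselves coding snoRNA hosts. The list was led by Eef1a1 at 0.37 ± 0.01, Npm1 at 0.59 ± 0.03 and Rack1 at 0.44 ± 0.02. On the TPM scale Eef1a1 was at 0.05 and not called (adjusted p = 0.0999 with limma). In cultured against fresh cells 10 were higher and 3 lower (median 0.25), with Eef1a1 at 0.57 ± 0.01, Npm1 at 0.90 ± 0.03 and Eif3e at 1.00 ± 0.04. Against fresh cells 11 were higher and 4 lower with IL-1b (median 0.52, but -0.08 on the TPM scale), with Eef1a1 at 0.94 ± 0.01, Npm1 at 1.49 ± 0.03 and Eif3e at 1.56 ± 0.04. Of 11 genes of the mTOR pathway and regulators of TOP messengers, 1 was higher and 5 lower with IL-1b (median -0.19), with Larp1, which binds TOP tracts, at -0.37 ± 0.04, Eif4ebp2 at -0.32 ± 0.03 and Tsc1 at -0.24 ± 0.05. With the trend on length and GC content removed, Tsc1 was at -0.09 and not called (adjusted p = 0.188 with edgeR). Of the list, 3 were higher and 5 lower in cultured against fresh cells (median -0.12), with Mtor at -0.63 ± 0.07, Rptor at -0.60 ± 0.07 and Tsc2 at -0.42 ± 0.06. Tsc2 was at -0.11 and not called with that trend removed (adjusted p = 0.137 with edgeR). Against fresh cells 2 were higher and 5 lower with IL-1b (median -0.21), with Mtor at -0.79 ± 0.07, while Larp1 at -0.50 ± 0.04 and Eif4ebp2 at -0.44 ± 0.03 were at 0.07 and 0.11 once the trend on length and GC content was removed.

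Gas5 RNA has been described, in human cells, as a decoy for the glucocorticoid receptor. Of 7 tested genes of that receptor and its targets, 1 was higher and 2 lower with IL-1b than in cultured cells (median 0.05), with Per1 at -0.44 ± 0.10, Fkbp5 at -0.38 ± 0.09 and Tsc22d3 at 0.27 ± 0.03, the last at -0.05 on the TPM scale. In cultured against fresh cells 2 were higher and 4 lower (median -0.40), with Tsc22d3 at 1.10 ± 0.04, Dusp1 at -2.23 ± 0.11 and Sgk1 at -1.33 ± 0.08. Against fresh cells 2 were higher and 4 lower with IL-1b (median -0.84), with Tsc22d3 at 1.37 ± 0.04, Dusp1 at -2.08 ± 0.10 and Sgk1 at -1.41 ± 0.08. The list did not move one way, with Tsc22d3 higher and Dusp1 and Sgk1 lower in both cultured groups than in fresh cells.

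Long noncoding RNAs that stay in the nucleus and host no snoRNA were read as well. With IL-1b 0 of 4 tested were higher and 3 lower than in cultured cells (median -0.36), Malat1 at -0.62 ± 0.02, Kcnq1ot1 at -0.68 ± 0.08 and Neat1 at -0.09 ± 0.03. The call of Neat1 was lost in 5 of the 9 fits that left out 1 library, with adjusted p of up to 0.113, and it was at -0.02 once the trend on length and GC content was removed. Of the list, 3 were higher and 1 lower in cultured against fresh cells (median 0.44), with Neat1 at 0.72 ± 0.03, Kcnq1ot1 at 1.35 ± 0.08 and Malat1 at 0.17 ± 0.02, the last at -0.06 on the TPM scale. Against fresh cells 2 were higher and 2 lower with IL-1b (median 0.11, but -0.31 on the TPM scale), with Neat1 at 0.63 ± 0.03, Kcnq1ot1 at 0.66 ± 0.08 and Malat1 at -0.46 ± 0.02. On the TPM scale Kcnq1ot1 was there at 0.04 and not called (adjusted p = 0.781 with limma).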

How the data were processed

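RNA extraction used RNAiso Plus and libraries a directional kit (NEBNext Ultra II), per the labels' protocols. STAR alignment and RSEM quantification on mm10 are named in the submitters' processing notes. Versions, strand setting and annotation: not given in the sources used here. Each deposited table holds for every gene, per the file headers, RSEM expected counts (not normalised), TPM values, and length and effective length in bases. FPKM values, scaled by the authors for length and depth with RSEM, were deposited too and left aside. Library totals were 13518814 to 23056686 expected counts, which limits precision to counting error and replicate spread.

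Symbols, coordinates and snoRNAs came from GENCODE M21 (GRCm38, the same assembly as mm10), matching 55141 of 55487 genes (99.4%), and promoters from RefSeq. Expected counts were rounded and tested with edgeR 4.0.16 in R 4.3.3 (filterByExpr, TMM, quasi-likelihood F test in 1 fit of all 9 libraries on the group, with Benjamini-Hochberg adjustment over 13043 genes at a threshold of 0.05), with a biological coefficient of variation of 0.0665. The SE of a log2 fold change is its size divided by the square root of F. log2(TPM + 1) and log2 gene length were tested with limma 3.58.1. Alternatives were other scalings, filters and pseudocounts, DESeq2 1.42.0, limma-voom, an effective length offset, removal of the trend of each library on length and GC content (mgcv 1.9.3, 13025 genes), only the 2 groups compared, a replicate block and leaving out each library. A prior spread that follows mean expression, for gene length, was added after seeing the data. The hosts, the lists and the rule for naming (all 8 hosts, the coding neighbours, 1 of which is not reported here, the 3 called genes of smallest adjusted p in each other list and comparison, and the 3 genes most like each host) were chosen with earlier results of these data known. The edgeR test on counts and the limma test on gene length were run on simulated data, with outcomes not given here. The limma test on log2(TPM + 1) was not. Python 3.11.15, numpy 2.4.6, pandas 2.3.3 and matplotlib 3.10.9 were used for tables and figures.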

Additional observations from a re-analysis of the deposited data

How the results depend on the processing

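Of 528 recomputed fold changes of the 8 hosts 460 kept direction and call, 33 lost the call, 7 gained it and 28 changed direction. Among those of the other named genes 2353 kept both, 98 lost the call, 4 gained it and 53 changed direction. Hosts called in IL-1b-treated against cultured cells numbered 6, but 2 at both TPM pseudocounts (1 and 0.1). Those in cultured against fresh cells numbered 7, but 4 with the effective length offset, and in IL-1b-treated against fresh cells 8, but 5 at both TPM pseudocounts. Leaving out 1 library gave 5 to 7, 7 and 7 to 8 hosts, and for length 0, 3 and 3 to 4 hosts where all libraries gave 0, 4 and 4. The log2 ratio of the share held by the 8 hosts was 0.381, 0.0511 and 0.432 on counts, against 0.226, 0.267 and 0.492 on summed TPM. Calls among all genes in IL-1b-treated against cultured cells numbered 3768, against 2151 with the offset and 2357 without the trend on length and GC content. By library size alone 1191 were higher and 3273 lower in that comparison (median log2 fold change of all genes -0.12), against 2037 and 1731 with TMM, and in IL-1b-treated against fresh cells 3408 and 5281 (median -0.18), against 4287 and 4252. The cause of these shifts was not tested.

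Values that changed direction are given as log2 changes, with their cause not tested. The first set is of log2(TPM + 1), with log2(TPM + 0.1) in brackets. For IL-1b-treated against cultured cells these were Snhg6 at -0.202 (-0.206), Snhg12 at -0.107 (-0.108), Rcc1 at -0.203 (-0.215), Slc3a2 at -0.197 (-0.202), Snhg20 at -0.0439 (-0.0443), Srsf7 at -0.0224 (-0.0225), Syncrip at -0.216 (-0.218), Tra2b at -0.0529 (-0.0533), Tsc22d3 at -0.05 (-0.0502) and Wdr74 at -0.279 (-0.284). For cultured against fresh cells these were Malat1 at -0.0646 (-0.0647), Nop56 at -0.0187 (equal), Prss12 at -0.126 (-0.156) and Syncrip at -0.0616 (-0.0622). For IL-1b-treated against fresh cells these were Snhg1 at 0.0322 (0.0324), Snhg5 at -0.0614 (-0.0625), Snhg6 at -0.0811 (-0.0828), Nop56 at -0.107 (equal), Ruvbl1 at -0.0235 (-0.024), Srsf2 at -0.18 (equal), Srsf3 at -0.03 (-0.0302), Syncrip at -0.278 (-0.281), Wdr74 at -0.198 (-0.202) and Znhit3 at -0.025 (-0.0272). Without the trend on length and GC content there were Snhg6 at -0.301 and Snhg12 at -0.0488 in IL-1b-treated against cultured cells, Gas5 at -0.285, Snhg6 at -0.133 and Rcc1 at 0.104 in cultured against fresh cells and Gas5 at -0.125, Snhg5 at -0.0435, Snhg6 at -0.434, Eif4ebp2 at 0.11, Larp1 at 0.0651, Prss12 at 0.31 and Rcc1 at 0.138 in IL-1b-treated against fresh cells. The offset gave Zbtb37 at 0.0172 in IL-1b-treated against cultured cells, Snhg1 at 0.0895 in cultured against fresh cells and Snhg1 at 0.58 in IL-1b-treated against fresh cells. Library size alone gave Snhg6 at -0.0306, Rcc1 at -0.107 and Slc3a2 at -0.0187 in IL-1b-treated against cultured cells, and the upper quartile Rcc1 at -0.00677 in IL-1b-treated against cultured cells. A minimum of 1 CPM gave Snhg5 at 5.44e-05 in cultured against fresh cells, and a fit of only the 2 groups Snhg5 at 0.0081 in cultured against fresh cells. Effective length in place of length gave Snhg3 at 0.0316 in cultured against fresh cells and Snhg3 at 0.0126 and Snhg6 at 0.0374 in IL-1b-treated against fresh cells.

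Leaving out 1 library turned the direction only of values that were not called. For IL-1b-treated against cultured cells they ran for Rcc1 from -0.0473 to 0.0456, the length of Snhg6 from -0.0982 to 0.0208, the length of Snhg8 from -0.00036 to 0.00805 and the length of Snhg12 from -0.0913 to 0.026. For cultured against fresh cells they ran for Snhg5 from -0.0665 to 0.106, Prss12 from -0.0148 to 0.157, Rcc1 from -0.154 to 0.0583, Zbtb37 from -0.11 to 0.0158 and the length of Snhg6 from -0.0222 to 0.029. For IL-1b-treated against fresh cells they ran for Rcc1 from -0.142 to 0.0702 and the length of Snhg6 from -0.0909 to 0.0281.

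Same-numbered libraries had deviations correlated between -0.022 and 0.019, so the replicate numbers were not taken as pairs. With the replicate block 5, 7 and 8 hosts and 3652, 7485 and 8454 genes were called, and the calls of Snhg12 and Znhit3 in IL-1b-treated against cultured cells were lost (adjusted p = 0.052 and 0.0662 with edgeR). Depth limits Snhg3 most, at 32.09 to 275.3 expected counts a library.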
